A study of Mus musculus with 4 samples.

Results

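The proteasome subunit genes were taken as every protein-coding gene of the deposited count table whose symbol starts with Psma, Psmb, Psmc, Psmd, Psme, Psmf or Psmg followed by a number. This gave 51 genes of 28193 in the table, 16973 of them protein-coding. They comprised 8 Psma and 11 Psmb genes, which encode the core particle, 7 Psmc and 14 Psmd genes, which carry the names of the regulatory particle, and 11 other genes (6 Psme, 1 Psmf and 4 Psmg). Psmc3ip and Psme3ip1 match by symbol only: they encode proteins that bind a subunit and are not part of the particle. The fosTRAP-seq experiment measured RNA bound to ribosomes that carry an HA-tagged Rpl22 protein, pulled down from CA1 of male mice. The mice carried a pair of injected viruses, one with an inducible Cre behind a c-Fos promoter and one with a Cre-dependent HA-Rpl22, so that cells active while 4-hydroxytamoxifen was present became tagged. Mice of both groups received this drug on day 0 and were kept awake for 5 h. A week later, on day 7, the sleep deprived group (SD) was kept awake again for 5 h by gentle handling and the non-sleep deprived group (NSD) was left to sleep, and tissue was taken at ZT 5. The study's methods describe C57BL/6J mice of 3 to 5 months, whereas the labels give the genotype as cFos-Cre:Ribotag and the tissue as dorsal hippocampus. Each library pooled CA1 of 5 mice, with 2 libraries and 10 mice per group. The comparison asked whether ribosome-bound RNA for the machine that degrades ubiquitin-tagged proteins differed in these tagged cells after a second bout of sleep loss.

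The 20S core particle is a barrel of 4 stacked rings. The outer rings hold the alpha subunits (Psma genes), which gate the entrance, and the inner rings hold the beta subunits (Psmb genes), of which Psmb5, Psmb6 and Psmb7 carry the protein-cutting sites. The 19S regulatory particle binds ubiquitin chains, removes them and unfolds the substrate: its base has 6 ATPases (Psmc genes) and most of its other subunits are named Psmd. Together they form the 26S proteasome. In immune cells and under interferon, Psmb8, Psmb9 and Psmb10 replace Psmb5, Psmb6 and Psmb7 to form the immunoproteasome. In neurons the proteasome is known for its part in synaptic remodeling and memory. The genes of the standard particle share control by the transcription factor NFE2L1, which binds antioxidant response elements.

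The promoters of Psmb5, Psmb6 and Psmb8 are printed because 2 of the standard catalytic genes hold the antioxidant response element core and the interferon-inducible Psmb8 holds a cAMP response element, the site of the activity-dependent factor CREB. Each sequence is the 250 bases before the start of the canonical GENCODE transcript in GRCm39, on the gene's own strand, with the motif in capitals. The Psmb5 window lies at chr14:54855482-54855731 on the minus strand, that of Psmb6 at chr11:70415933-70416182 on the plus strand and that of Psmb8 at chr17:34416440-34416689 on the plus strand.
Psmb5 promoter: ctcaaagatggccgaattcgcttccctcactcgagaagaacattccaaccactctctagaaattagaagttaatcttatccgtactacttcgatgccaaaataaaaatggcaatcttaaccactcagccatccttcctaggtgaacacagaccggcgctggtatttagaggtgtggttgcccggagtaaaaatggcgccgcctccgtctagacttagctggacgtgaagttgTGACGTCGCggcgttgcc
Psmb6 promoter: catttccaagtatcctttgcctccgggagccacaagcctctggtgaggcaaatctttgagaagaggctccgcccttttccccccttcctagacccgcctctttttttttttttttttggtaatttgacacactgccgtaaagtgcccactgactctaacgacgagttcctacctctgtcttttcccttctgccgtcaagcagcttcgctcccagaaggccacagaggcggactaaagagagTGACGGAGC
Psmb8 promoter: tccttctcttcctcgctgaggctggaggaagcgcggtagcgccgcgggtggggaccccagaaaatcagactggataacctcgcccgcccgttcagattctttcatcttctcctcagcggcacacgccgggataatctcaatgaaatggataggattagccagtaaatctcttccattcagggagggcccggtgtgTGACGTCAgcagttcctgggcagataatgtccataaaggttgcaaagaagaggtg
The capitals mark TGACNNNGC, 18 bases before the start in Psmb5 and 9 bases before it in Psmb6, and TGACGTCA, 55 bases before it in Psmb8. Motifs were searched on both strands from 250 bases before to 50 bases after the start of 16943 coding genes. TGACNNNGC was in 8 of the 51 member promoters (15.7%) and in 13.3% of all promoters. The members with it were Psmb2, Psmb5, Psmb6, Psmc6, Psmd7, Psmd9, Psmd12 and Psmg2, so 3 of the core, 4 of the regulatory and 1 of the other genes. The CCAAT box (CCAAT) was in 19 members (37.3%) and in 38.8% of all promoters. TGACGTCA was in 2 members, Psmb2 and Psmb8 (3.92%), and in 2.77% of all promoters. Psmb2 held it 23 bases before the start, apart from its TGACNNNGC, which began 1 base before the start. The interferon response element core GAAANNGAA, added after the values had been seen, was in 8 members (15.7%) and 8.30% of all promoters, and none of these was Psmb8, Psmb9 or Psmb10. These matches describe letters in a window and were not tested as binding sites.

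The libraries held 153511705 to 195910235 estimated counts, and the 51 genes took 0.137% to 0.152% of them. Summed levels of 8 CA1 pyramidal neuron markers were 6110 to 6670 CPM (counts relative to the TMM-scaled library total), so the labelled tissue showed its defining genes. Markers of other cells were also present: 3040 to 3620 CPM over 8 astrocyte genes, 1570 to 1890 over 8 oligodendrocyte genes, 95.8 to 126 over 11 microglia genes, 24.9 to 60.0 over 8 endothelial genes and 754 to 860 over 7 interneuron genes. None of these marker genes was at 0 in any library. Libraries of unselected RNA were not analysed here, so enrichment by the pull-down was not measured. Ribosome-bound RNA per tagged cell and the number of tagged cells of a type cannot be told apart in pooled tissue. SD 2 was the lowest of the 4 libraries for 32.1% of all genes tested (19.2% to 28.5% for the others). Among protein-coding genes alone the share was 25.9%, and NSD 1 was the lowest more often, for 33.5%. Calls and fold changes that rest on SD 2 are given with and without it. Replicate numbers equal the batch numbers of the labels. All values here come from 2 libraries per group, each a pool of mice, so p-values measure the spread between pools.

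No proteasome gene passed the test between SD and NSD. All 51 passed the count filter (over 5 in each library), as did 22338 genes in all. In edgeR's quasi-likelihood fit, 0 of 51 were called higher and 0 lower (called meaning over 1.2-fold with an adjusted p under 0.05), where 0.770% of all genes tested were called higher and 2.33% lower. With DESeq2 the count was also 0, of the 50 members that had an adjusted p there (all but Psmb11), where 3.19% of all genes were called higher and 6.16% lower, and with the replicate number as a block it was 0 where 2.99% and 8.47% were. Among protein-coding genes alone, to which all members belong, the share called in either direction was 1.49% by edgeR, 5.87% by DESeq2 and 7.07% with the block. At an unadjusted p under 0.05 there were 2 members by edgeR (Psmb11 and Psme4, both lower in SD; 19.1% of all genes tested), 2 by DESeq2 (Psmc5 and Psme3, both higher; 19.5%) and 8 with the block (26.5%). Over the members the log2 fold change had a median of -0.017, against -0.016 over all genes tested and 0.018 over protein-coding genes tested. The fold change lay within 1.2 in either direction for 48 of 51 members, as it did for 64.0% of all genes and 77.0% of protein-coding genes tested. The 3 members beyond it were Psmb8, Psmb9 and Psmb11. The 95% interval of the difference stayed within 1.5-fold in either direction for 42 of the 51 (82.4%), as it did for 50.7% of all genes and 67.9% of protein-coding genes tested. The groups did not overlap in 13 members: SD was above NSD in 6 (22.0% of all genes and 26.5% of protein-coding genes tested) and below in 7 (27.5% and 20.0%).

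**Figure D1:**
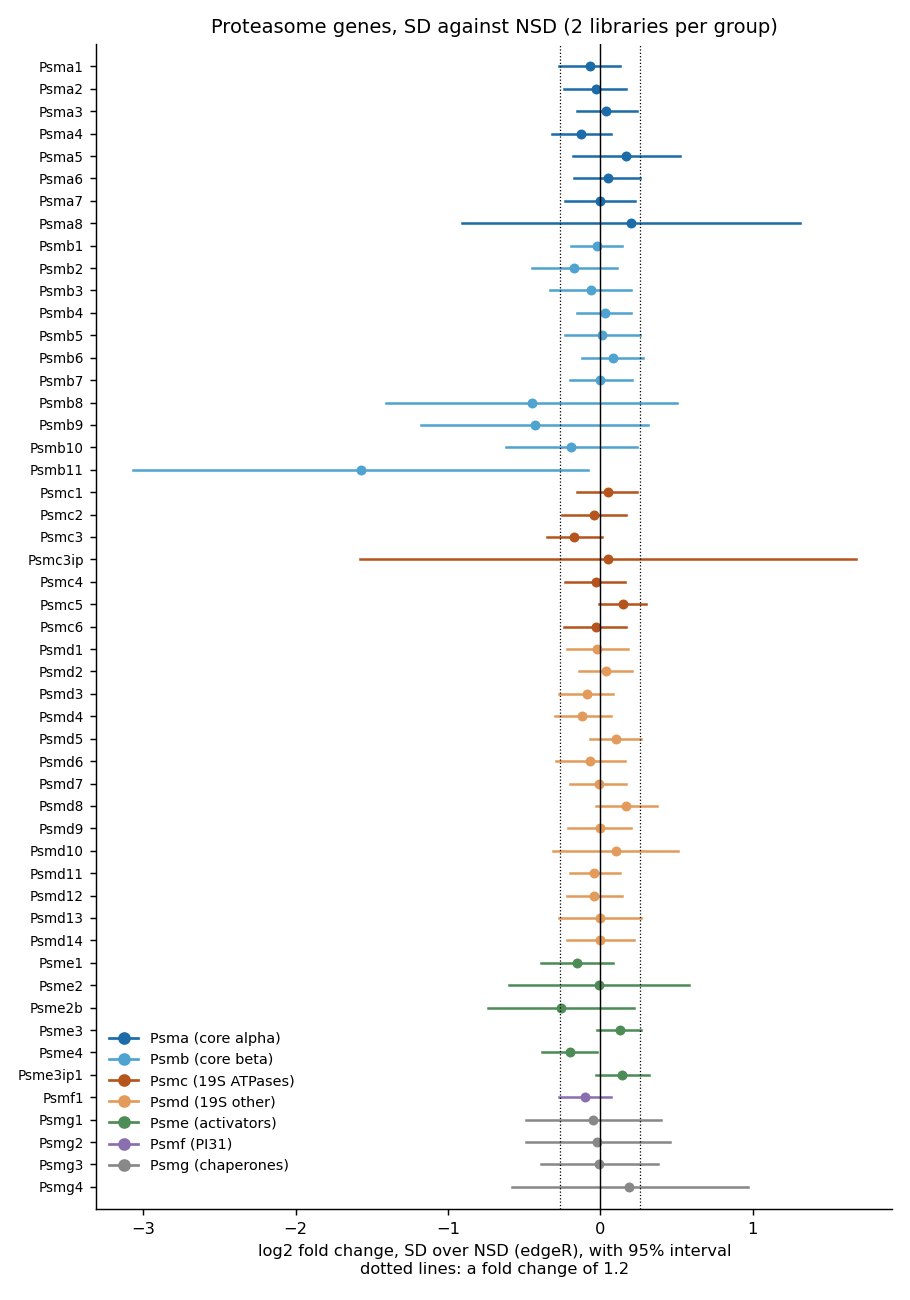
Log2 fold change of SD over NSD for the 51 proteasome genes (edgeR, horizontal axis), with the 95% interval as a bar and colors for the gene families. Most points lie between the dotted lines at a fold change of 1.2, and the intervals are widest for Psmc3ip, Psmb11, Psma8, Psmb8, Psmg4 and Psmb9.

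The alpha subunits of the core particle were close to level between the groups. Of 8 Psma genes, 5 had a log2 fold change above 0 and 3 below, from -0.13 to 0.20 with a median of 0.022. Psma7, the highest of them per kb of transcript, read 22.2 and 26.4 CPM in NSD and 23.3 and 25.3 CPM in SD. The groups overlapped, and its log2 fold change was 0.00 ± 0.10 (SE, n = 2 libraries per group). Psma7 shares 132 exon bases with Ss18l1 on the other strand, which held 274% of its estimated counts. Psma4 read 23.5 and 26.2 CPM in NSD against 23.1 and 22.5 CPM in SD. Both SD libraries were below both NSD libraries here, with a log2 fold change of -0.13 and an adjusted p of 0.490 by edgeR. Psma3 was the only Psma gene whose SD values both exceeded the NSD values, at 16.0 and 16.0 CPM against 15.4 and 15.6 CPM.

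Psma5, an alpha ring subunit, shares its sequence with the processed pseudogene Psma5-ps, and the authors' model can split reads between them. Psma5 read 6.41 and 8.53 CPM in NSD and 8.05 and 8.76 CPM in SD, with the lowest value in NSD 1 and overlapping groups. Its log2 fold change was 0.17 ± 0.15 (SE) and its adjusted p 0.629 by edgeR. The pseudogene took more estimated counts than the gene in all 4 libraries, 1382 to 2165 against 1062 to 1656. With both added, the level was 14.7 and 19.8 CPM in NSD and 17.6 and 20.2 CPM in SD, and the log2 fold change was 0.13 with an adjusted p of 0.707. The level of Psma5 alone is therefore uncertain, and its rank within the alpha ring is not read here.

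The standard catalytic subunits were as level as the rest of the standard core. Psmb5, which carries the chymotrypsin-like site and lies at chr14:54851576-54855479, read 35.0 and 42.7 CPM in NSD and 36.8 and 41.6 CPM in SD. Its log2 fold change was 0.01 with a 95% interval of -0.23 to 0.26 (adjusted p = 0.969, edgeR). Psmb6, which carries the caspase-like site (chr11:70416193-70418684), read 35.5 and 41.3 CPM in NSD and 39.5 and 41.8 CPM in SD. Its log2 fold change of 0.08 had an interval of -0.12 to 0.28 and an adjusted p of 0.695 by edgeR. Psmb7, which carries the trypsin-like site (chr2:38478048-38534099), read 28.0 and 32.4 CPM in NSD and 29.2 and 31.2 CPM in SD. Its log2 fold change was 0.00 with an interval of -0.20 to 0.21. In all 3 genes the SD values lay within or just above the range of the NSD values, and the interval of Psmb5 reached close to the fold change threshold on both sides and that of Psmb6 past it on the higher side only. Psmb7 shares 2817 exon bases with Nek6 on the other strand, which held 57.6% of its estimated counts, and whether counting used strand is not given in the sources used here.

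The remaining standard beta subunits, Psmb1 to Psmb4, had log2 fold changes of -0.02, -0.17, -0.06 and 0.03. Psmb2 had the lowest log2 fold change of the standard core genes. It read 18.0 and 23.1 CPM in NSD and 17.3 and 19.2 CPM in SD, so the groups overlapped, and its adjusted p was 0.526 by edgeR. Psmb4 shares 306 exon bases with Pogz on the other strand, and Pogz held 234% of its estimated counts.

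The ATPases of the 19S base lay close to 0 on both sides. Psmc5 and Psmc3 were the ends of the range. Psmc5, an ATPase of the base ring (chr11:106146980-106153946), read 48.5 and 45.9 CPM in NSD and 53.5 and 51.0 CPM in SD. Its SD values were the higher ones, by 0.14 in batch 1 and 0.15 in batch 2 on the log2 scale, with an adjusted p of 0.296 by edgeR and 0.235 by DESeq2. Psmc3, another ATPase of the ring (chr2:90884354-90896714), read 53.8 and 59.4 CPM in NSD and 48.2 and 52.7 CPM in SD. Its SD values were below both NSD values, with differences of -0.16 and -0.17 in the 2 batches, a log2 fold change of -0.17 ± 0.079 (SE) and an adjusted p of 0.307 by edgeR. Psmc1, Psmc2, Psmc4 and Psmc6 had log2 fold changes from -0.04 to 0.05 and overlapping groups.

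Among the 14 Psmd genes, 4 had log2 fold changes above 0 and 10 below, from -0.12 to 0.17, and the median was -0.009. Psmd2, the large scaffold subunit of the base (chr16:20470402-20482164), had the highest level of the 51 genes per kb of canonical transcript and read 115 and 125 CPM in NSD and 119 and 127 CPM in SD. Its log2 fold change was 0.04 with an interval of -0.14 to 0.21. Psmd8, a lid subunit (chr7:28873613-28880126), was the highest of the Psmd genes by fold change. It read 29.8 and 34.4 CPM in NSD and 34.9 and 37.5 CPM in SD, a log2 fold change of 0.17 ± 0.089 (SE) with an adjusted p of 0.348 by edgeR. Its SD values were both above its NSD values, the closest pair being 34.4 and 34.9 CPM. Psmd4, a ubiquitin receptor, read 33.7 and 34.3 CPM in NSD and 29.4 and 33.1 CPM in SD, with both SD libraries below both NSD libraries and an adjusted p of 0.495 by edgeR. Psmd14, the deubiquitinase of the lid, read 28.3 and 34.1 CPM in NSD and 30.7 and 31.7 CPM in SD, inside the NSD range.

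Core and regulatory genes were also alike as groups. The 19 core genes had a median log2 fold change of -0.025 and the 21 regulatory genes one of -0.014, a gap of -0.011 where replicate libraries of a group differed in this gap by an SD of 0.087. All 21 regulatory genes and 16 of the 19 core genes lay within a fold change of 1.2. When only the subunits of the particle found in every tissue were counted (14 core and 17 regulatory genes, leaving out Psma8, Psmb8 to Psmb11, Psmc3ip and the assembly factors Psmd5, Psmd9 and Psmd10), the medians were 0.001 and -0.031. All 31 of these had a fold change within 1.2 and a 95% interval within 1.5-fold.

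The standard subunits shared a pattern that followed the replicate number. In 28 of the 31, replicate 2 was above replicate 1 in both groups, a pattern that 28.2% of all genes tested and 32.3% of protein-coding genes tested showed. The median level of the 31 genes was 29.8 CPM in NSD 1, 34.3 in NSD 2, 30.7 in SD 1 and 33.1 in SD 2. The NSD 1 library was the lowest of the 4 for 27 of the 51 members (52.9%), as it was for 28.5% of all genes and 33.5% of protein-coding genes tested. Within batch 1 the median SD minus NSD difference of the 31 genes was 0.039 and within batch 2 it was -0.053 on the log2 scale, so the sign of the median turned with the batch. Of the 31, 9 were higher in SD in both batches and 10 were lower in both. The labels give the batch number without saying what it marks.

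**Figure D2:**
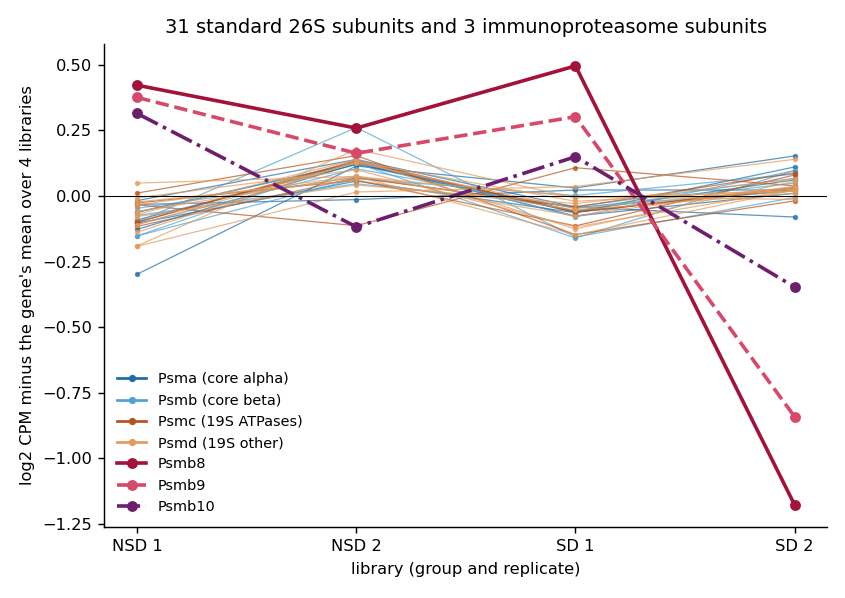
Log2 CPM of each gene minus its mean over the 4 libraries (vertical axis) in each library (horizontal axis), for the 31 standard 26S subunits (thin lines, colored by family) and for Psmb8, Psmb9 and Psmb10 (thick lines), with a line joining the values of 1 gene. The standard subunits stay close to 0 and are mostly higher in the replicate 2 libraries, whereas Psmb8 and Psmb9 are lowest in SD 2, at 2.65 and 1.82 CPM.

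The immunoproteasome genes behaved unlike the standard genes, and the lower SD means of Psmb8 and Psmb9 rested on 1 library. Psmb8 (chr17:34416695-34420428) read 8.03 and 7.17 CPM in NSD, 8.45 CPM in SD 1 and 2.65 CPM in SD 2. Psmb9 (chr17:34400961-34406738) read 4.23 and 3.65 CPM in NSD, 4.02 CPM in SD 1 and 1.82 CPM in SD 2. Psmb10 (chr8:106662367-106665076) read 13.9 and 10.3 CPM in NSD, 12.4 CPM in SD 1 and 8.79 CPM in SD 2. In each of the 3, SD 1 lay within or above the NSD range and SD 2 was the lowest of the 4 libraries. The counts behind SD 2 were 502 for Psmb8, 345 for Psmb9 and 1662 for Psmb10, well above the range where single reads decide a value.

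The log2 fold changes of Psmb8, Psmb9 and Psmb10 were -0.45 ± 0.42, -0.43 ± 0.32 and -0.19 ± 0.19 (SE), with adjusted p of 0.643, 0.548 and 0.674 by edgeR. With the replicate block they were -0.66, -0.53 and -0.19, with adjusted p of 0.0965, 0.110 and 0.194. Within batch 1 the SD minus NSD differences were 0.07, -0.07 and -0.16, and within batch 2 they were -1.43, -1.0 and -0.23. Without SD 2 the log2 fold changes were 0.17, 0.04 and 0.06, with adjusted p of 0.826, 0.984 and 0.963 by edgeR. Without SD 1 they were -1.52, -1.11 and -0.46, with adjusted p of 4.01e-09, 0.00199 and 0.0662, so Psmb8 and Psmb9 were called lower there, in a fit that called 8.57% of all genes lower and that rests on SD 2 alone for the SD group. In that fit the lone SD library is assumed to vary like the NSD libraries. A difference between the 2 batches in the effect of SD could not be tested with 1 library per batch and group.

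Per kb of coding sequence, Psmb8 stood at 22.0% and 16.0% of Psmb5 in NSD 1 and NSD 2, 22.0% in SD 1 and 6.10% in SD 2. Psmb9 stood at 12.9% and 9.62% of Psmb6 in NSD, 11.1% in SD 1 and 4.74% in SD 2. Psmb10 stood at 50.3% and 32.3% of Psmb7 in NSD, 43.2% in SD 1 and 28.5% in SD 2. The interferon-inducible subunits were thus below their standard counterparts in every library. All 3 were lower in replicate 2 than in replicate 1 in both groups, opposite to 28 of the 31 standard subunits.

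Psmb8 and Psmb9 lie in the major histocompatibility complex together with Tap1 and Tap2, which encode the peptide transporter of antigen presentation. These 4 genes span 34.3 kb at chr17:34400961-34435295. Psmb9 and Tap1 run in opposite directions from starts 363 bases apart and share 743 exon bases, and Tap1 held 618% of the estimated counts of Psmb9, so the Psmb9 values are uncertain if counting did not use strand. Tap1 read 29.2 and 23.3 CPM in NSD, 22.9 CPM in SD 1 and 9.74 CPM in SD 2. It was lowest in SD 2, like both proteasome genes beside it, and its log2 fold change was -0.69 with all libraries and -0.18 without SD 2.

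All 10 genes of a list of antigen presentation and interferon genes were lowest in SD 2, where 25.9% of protein-coding genes tested were. By edgeR without a block 0 of the 10 were called and 0 had an unadjusted p under 0.05, 0 were called by DESeq2, and 7 were called lower with the replicate block, among them Tap1, Tapbp, Nlrc5, Irf1, H2-K1 and H2-D1, where 8.47% of all genes were. Irf1, an interferon response factor that drives Psmb8 and Psmb9, read 11.4 and 11.4 CPM in NSD, 10.5 CPM in SD 1 and 3.88 CPM in SD 2. Nlrc5, the activator of class I genes, read 18.5 and 12.5 CPM in NSD, 15.5 CPM in SD 1 and 5.65 CPM in SD 2. The median log2 fold change of the 10 was -0.330 with all libraries and 0.044 without SD 2. The low library was the same for the genes on chromosome 17 and for Irf1 and Nlrc5 elsewhere.

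Markers of other cell types moved in part with them. The summed level of 11 microglia markers was 125 and 101 CPM in NSD, 126 CPM in SD 1 and 95.8 CPM in SD 2. This sum was lower in replicate 2 than in replicate 1 in both groups. SD 2 was the lowest library for 10 of the 11, as it was for 25.9% of protein-coding genes tested. Their median log2 fold change was -0.040, and 0.187 without SD 2. The summed level of 8 endothelial markers was 43.4 and 60.0 CPM in NSD, 36.6 CPM in SD 1 and 24.9 CPM in SD 2, with all 8 lowest in SD 2 and 6 of 8 lower in SD than in NSD with no overlap, where 27.5% of all genes were. By edgeR 0 of the 8 were called and 6 had an unadjusted p under 0.05, where 19.1% of all genes tested did. With the replicate block 5 were called lower, where 8.47% of all genes were. DESeq2 called 4 lower (Cdh5, Flt1, Tek and Tie1, with adjusted p from 0.000705 to 0.0204), where 6.16% of all genes were. The median log2 fold change of the 8 endothelial markers was -0.757, and -0.520 without SD 2. Of 7 interneuron markers, 5 were lowest in SD 2 and 1 was called lower with the replicate block: Sst, at 120 and 106 CPM in NSD, 109 CPM in SD 1 and 73.6 CPM in SD 2 (adjusted p = 0.0118, edgeR). Without the block the log2 fold change of Sst was -0.31 with an adjusted p of 0.347 by edgeR and 0.656 by DESeq2. Without SD 2 it was -0.03. Pvalb lay the other way, at 13.6 and 13.0 CPM in NSD and 17.4 and 14.4 CPM in SD. Its log2 fold change was 0.26, with an unadjusted p of 0.0475 and an adjusted p of 0.255 by edgeR. The median log2 fold change of the 7 interneuron markers was -0.039. Of the remaining lists, 1 of 8 astrocyte, 3 of 8 oligodendrocyte and 0 of 8 CA1 pyramidal neuron markers were lowest in SD 2. The part of other cell types in the immunoproteasome values was not tested.

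**Figure D3:**
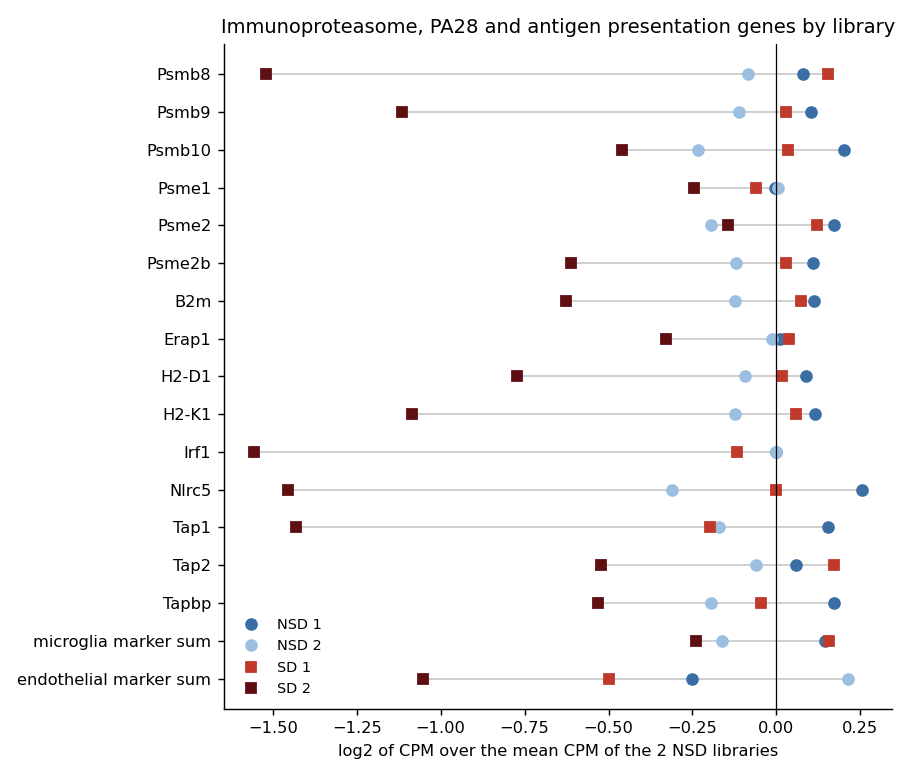
Log2 of the CPM of each gene over its mean in the 2 NSD libraries (horizontal axis) for the immunoproteasome and PA28 genes, for 9 of the 10 antigen presentation and interferon genes and for 2 summed marker lists, with NSD libraries as circles and SD libraries as squares. SD 2 is the lowest library for all of these but Psme2, and SD 1 stays near the NSD circles except for the endothelial sum.

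Psme1 and Psme2 encode the PA28 activator, which caps the core particle and is induced with the immunoproteasome. Psme1 read 13.1 and 13.2 CPM in NSD and 12.6 and 11.1 CPM in SD, with both SD libraries below both NSD libraries, a log2 fold change of -0.15 and an adjusted p of 0.493 by edgeR, and -0.04 without SD 2. Psme2 read 1.78 and 1.38 CPM in NSD and 1.72 and 1.43 CPM in SD, and its near copy Psme2b on chromosome 11 read 6.72 and 5.73 CPM in NSD, 6.35 CPM in SD 1 and 4.07 CPM in SD 2. Reads can be split between the pair, and added together they read 8.50 and 7.12 CPM in NSD, 8.06 CPM in SD 1 and 5.50 CPM in SD 2. The log2 fold change of the sum was -0.20 ± 0.19 (SE) with an adjusted p of 0.644 by edgeR. The sum was lowest in SD 2, as Psmb8 to Psmb10 were, and without SD 2 the log2 fold change of Psme2b went from -0.26 to 0.04. Psme2 also shares 731 exon bases with Rnf31 on the other strand, which held 2102% of its estimated counts.

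The other activators lay apart in opposite directions, and neither passed the test. Psme4 encodes PA200, a single-chain cap of the core particle (chr11:30721726-30830361). It read 42.2 and 41.3 CPM in NSD and 38.5 and 34.3 CPM in SD. Both SD libraries were lower, by 0.14 in batch 1 and 0.27 in batch 2 on the log2 scale, and the log2 fold change was -0.20 with a 95% interval of -0.38 to -0.02. Its unadjusted p of 0.0316 was the lowest of the 51 genes, and its adjusted p was 0.205 by edgeR, 0.273 by DESeq2 and 0.0511 with the replicate block, the lowest of any member in that fit. Without SD 2 the log2 fold change of Psme4 was -0.10 with an adjusted p of 0.847 by edgeR, and without SD 1 it was -0.28 with an adjusted p of 0.151. Psme3 encodes the nuclear PA28 gamma activator (chr11:101207039-101214363) and read 74.6 and 77.3 CPM in NSD and 83.5 and 82.2 CPM in SD. The SD values were higher, with a log2 fold change of 0.13 ± 0.064 (SE) and an adjusted p of 0.340 by edgeR and 0.238 by DESeq2. Psme3ip1, whose product binds PA28 gamma, read 21.3 and 21.0 CPM in NSD and 23.2 and 23.6 CPM in SD, with an adjusted p of 0.367 by edgeR. Psmf1, which encodes the inhibitor PI31, read 23.8 and 24.2 CPM in NSD and 22.1 and 22.7 CPM in SD, with an adjusted p of 0.554 by edgeR.

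The assembly chaperones of the core particle, Psmg1 to Psmg4, were below most subunits per kb of coding sequence and had log2 fold changes of -0.05, -0.02, -0.01 and 0.19. Psmg4 read 0.621 and 0.853 CPM in NSD and 0.763 and 0.920 CPM in SD, and its 95% interval ran from -0.58 to 0.97 on the log2 scale. Psmg3 read 3.88 and 3.78 CPM in NSD and 3.50 and 4.14 CPM in SD. In Psmg3 and Psmg4 the groups overlapped. The chaperones of the 19S base gave log2 fold changes of 0.10 for Psmd5, 0.10 for Psmd10 and 0.00 for Psmd9. Psmd5 read 29.4 and 30.0 CPM in NSD and 30.6 and 32.9 CPM in SD, with no overlap of the groups and an adjusted p of 0.564 by edgeR. Psmd10, also known as gankyrin, read 3.86 and 5.19 CPM in NSD and 4.72 and 4.97 CPM in SD.

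The genes known from other tissues had the lowest levels per kb of coding sequence, together with Psmc3ip. Psmb11, the beta subunit of the thymus, had 45 and 16 estimated counts in NSD and 13 and 10 in SD, which is 0.271 and 0.102 CPM against 0.0719 and 0.0529 CPM. The SD values were lower, and the log2 fold change of -1.57 had an interval of -3.07 to -0.08, an unadjusted p of 0.0416 and an adjusted p of 0.238 by edgeR. Without NSD 1 the log2 fold change was -0.67. Psma8, the alpha subunit of the testis, had 29 and 36 estimated counts in NSD and 37 and 49 in SD, and its log2 fold change of 0.20 had an interval of -0.91 to 1.31. Psmc3ip, which acts in meiotic recombination, had 13 and 70.4 estimated counts in NSD and 50.3 and 50.4 in SD. It shares 1109 exon bases with Mlx on the other strand, which held 5134% of its estimated counts, so its values may be reads of Mlx. At these depths no difference was detectable for Psma8 and Psmc3ip.

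Levels were compared per length, as the mean of the 4 libraries. Psma5, whose reads can be split with its pseudogene, stood at 11.0 CPM per kb of coding sequence alone and at 25.0 with the pseudogene added. Over the other 13 standard core subunits the level ran from 20.6 (Psma3) to 58.8 (Psmb1), with a median of 36.4. Over the 17 standard regulatory subunits it ran from 20.3 (Psmd13) to 44.7 (Psmd2), a range of 2.20-fold with a median of 28.9. Psme3 was at 104 on this scale but at 18.1 per kb of its transcript, below the medians of the standard core (20.2) and regulatory (20.0) subunits on that scale. PA200 (Psme4) was at 7.06 per kb of coding sequence. On the same scale the immunoproteasome genes stood at 13.9 (Psmb10), 7.94 (Psmb8) and 5.22 (Psmb9), the core chaperones from 2.14 (Psmg4) to 10.5 (Psmg3), and Psmb11 at 0.137. Per kb of the canonical transcript the order changed for genes with long untranslated ends: Psmb1 was at 7.06 and Psma3 at 4.38, and the highest were Psmd2 at 40.4 and Psmb6 at 38.1. Neighbors in these orders were not tested against each other.

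**Figure D4:**
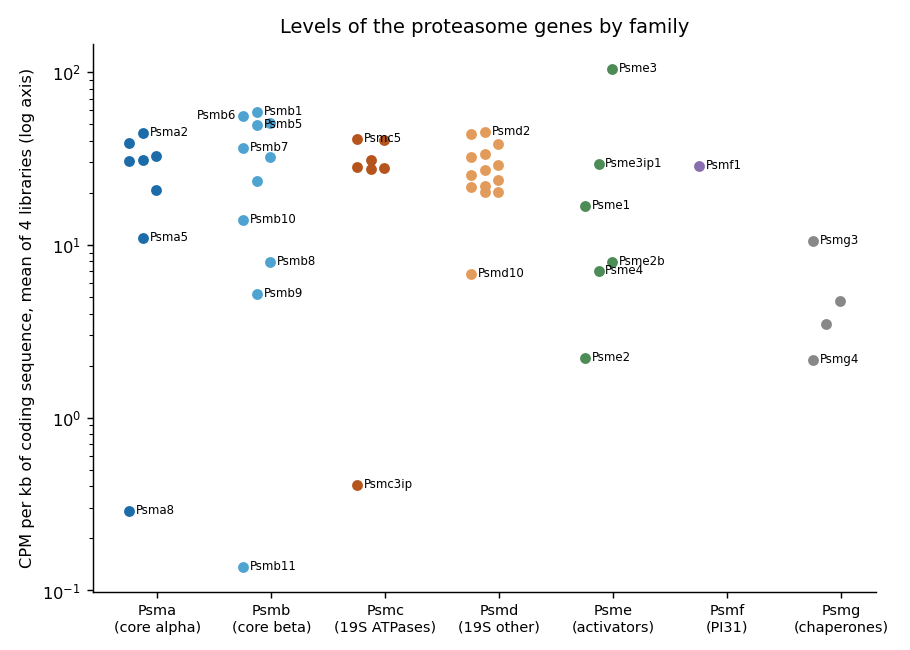
CPM per kb of coding sequence, as the mean of the 4 libraries on a log axis, for the 51 genes by family. The standard core and regulatory subunits lie between 20.3 and 58.8, apart from Psma5, whose reads can be split with a pseudogene. The immunoproteasome genes lie below most of the standard subunits, and Psma8, Psmb11 and Psmc3ip lie lowest.

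Of 24 proteasome regulators and partners, 1 was called by edgeR, where 3.10% of all genes tested were. Ddi2 encodes the protease that cuts and releases NFE2L1, the factor that drives proteasome genes (chr4:141404860-141450730). It read 122 and 119 CPM in NSD and 168 and 154 CPM in SD, and rose by a log2 fold change of 0.42 ± 0.073 (SE, adjusted p = 0.0379, edgeR). Both SD libraries were above both NSD libraries, by 0.46 in batch 1 and 0.37 in batch 2. With the replicate block its adjusted p was 0.000639, and it was 0.0507 with no count filter, 0.0628 with filterByExpr and 0.0501 among protein-coding genes only, where it was not called. Nfe2l1 itself read 377 and 398 CPM in NSD and 451 and 442 CPM in SD, with both SD libraries higher, a log2 fold change of 0.20 and an adjusted p of 0.221 by edgeR. By DESeq2 its log2 fold change was 0.23 and its adjusted p 0.0162, short of the fold change needed for a call. Nfe2l2, its relative in the oxidative stress response, read 16.4 and 12.6 CPM in NSD and 15.4 and 14.1 CPM in SD, inside the NSD range.

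Of the partners that bind or build the particle, none named here was called. Adrm1, a ubiquitin receptor of the 19S, read 15.9 and 17.9 CPM in NSD and 14.2 and 14.6 CPM in SD, with both SD libraries lower, a log2 fold change of -0.23 (95% interval -0.45 to -0.02) and an adjusted p of 0.229 by edgeR. Sem1, the smallest 19S subunit, read 3.71 and 4.07 CPM in NSD and 3.67 and 3.27 CPM in SD, with both SD values the lower ones, a log2 fold change of -0.17 and an adjusted p of 0.685 by edgeR. Pomp, which guides assembly of the core, read 31.3 and 35.7 CPM in NSD and 33.8 and 34.1 CPM in SD, and its log2 fold change was 0.02. Usp14 and Uchl5, the deubiquitinases that dock on the 19S, had log2 fold changes of 0.01 and 0.04. Usp14 read 95.1 and 112 CPM in NSD and 100 and 108 CPM in SD, inside the NSD range. Over the 24 genes the median log2 fold change was 0.019, and 9 lay below 0.

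None of the 12 genes of ubiquitin and its activation was called by edgeR, 1 had an unadjusted p under 0.05, and 1 was called with the replicate block. That gene was Uba6, a second ubiquitin-activating enzyme (chr5:86257146-86320662). It read 20.4 and 22.4 CPM in NSD and 25.3 and 28.0 CPM in SD, the SD values being the higher ones. Its log2 fold change was 0.32 ± 0.089 (SE), with an adjusted p of 0.0934 by edgeR, 0.00831 with the replicate block and 0.0198 by DESeq2. Over the 3 partner lists, 1 of 46 genes was called by edgeR (3.10% of all genes tested), 2 by DESeq2 (9.35%) and 9 with the replicate block (11.5%), of which 7 were the antigen presentation and interferon genes that were low in SD 2. The ubiquitin gene Ubb, the enzyme Uba1 and the ligase Ube3a had log2 fold changes of 0.02, 0.02 and -0.13.

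**Figure D5:**
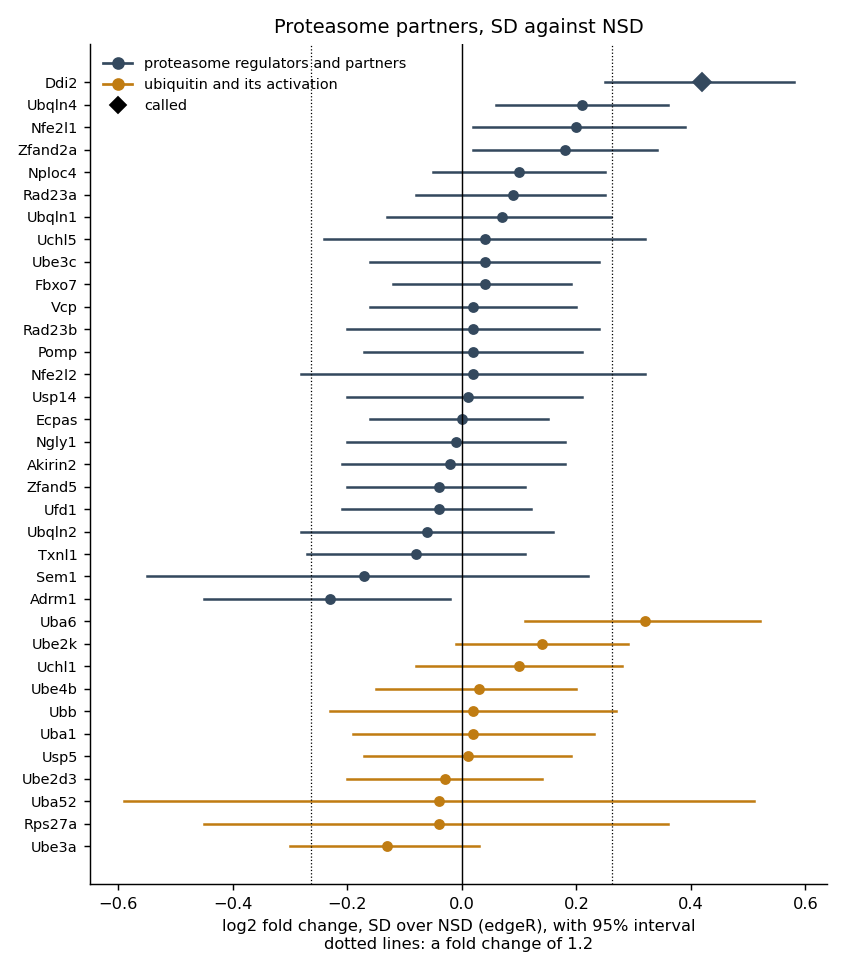
Log2 fold change of SD over NSD (edgeR, horizontal axis) with 95% intervals for 24 proteasome regulators and partners and 11 of the 12 genes of ubiquitin and its activation. Ddi2 at 0.42 is the only gene called (diamond), and Uba6 at 0.32 lies furthest from 0 in the ubiquitin list.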

How the data were processed

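The labels name Partek and the mouse build mm39 (GRCm39), and the study's methods name STAR for alignment after trimming. What the authors deposited were gene-level expected counts, from Partek Flow's E/M model. The kit was stranded, but whether counting used strand is not given in the sources used here. The deposited values were not normalized, and 0 value columns were left unused. They were rounded to whole numbers. Genes above 5 counts in each of the 4 libraries entered edgeR 4.0.16 under R 4.3.3 (TMM scaling, quasi-likelihood test, group as the single term, Benjamini-Hochberg adjustment over all genes tested), where the study used DESeq2. Genes were called at a fold change over 1.2 with an adjusted p under 0.05. The common dispersion was 0.0296. CPM were scaled with TMM factors, and a prior count of 2 entered the log2 CPM of each library. Fits were tested on simulated data. The standard errors with edgeR's fold changes were derived from the log2 fold change and the F statistic of its test. The 95% intervals were built from these with a t quantile, as edgeR's test returns neither.

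The members and the lists of partners, markers and motifs were chosen with earlier results of these data known. The genes named by rule were Psmb5 to Psmb10, Psmf1, Psmc3ip and the 5 highest and 5 lowest members by fold change. The rule also took the highest and lowest of each family per kb of transcript, any called member, 7 fixed partners and the partners called with or without the block. Psma3, Psma4, Psmb2, Psmb4, Psmc3, Psmd4, Psmd5, Psmd14, Psme1 and Psme3ip1 were added after their values were seen, mostly because their groups did not overlap. Further members were given by name only with a fold change, a mean level or a motif. Positions are the deposited ones, and lengths, overlaps and starts come from GENCODE vM39. Replicate numbers equal the labels' batch numbers, and libraries with the same number deviated together from their group means (correlation 0.178 over the genes tested), so a fit with the number as block was run as an alternative. The others were DESeq2 1.42.0, its size factors within edgeR, no filter on counts, filterByExpr, protein-coding genes only, no fold change threshold, fewer members and each library left out in turn. Adding the counts of near copies was an alternative chosen after seeing the data. Protein sequences were not analysed here, and some list genes are counted but not reported here by name. At 153511705 to 195910235 counts per library, the number of libraries limits the precision.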

Additional observations from a re-analysis of the deposited data

How the results depend on the processing

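The count of proteasome genes called stayed at 0 in each direction with the replicate block, DESeq2, DESeq2's size factors, no filter, filterByExpr, protein-coding genes only, no fold change threshold and the near copies added. Leaving out 1 library gave 0 to 2 called lower, and the 2 were Psmb8 and Psmb9 without SD 1. The block moved the median log2 fold change of all members from -0.017 to -0.013. Leaving out each library moved it over -0.068 to 0.056 and the regulatory median over -0.068 to 0.086, the highest without NSD 2 in both. The other medians moved by less than the spread between replicates. The partner genes called numbered 1, but 9 with the replicate block, 2 by DESeq2, 0 with no filter, 0 with filterByExpr, 0 among protein-coding genes only, and 1 to 11 with 1 library left out, the 11 without SD 1. Of the 38 genes named by rule, 8 changed sign without NSD 1, 1 without NSD 2, 2 without SD 1 and 11 without SD 2, the last group including Psmb8, Psmb9, Psmb10, Psme2b, Nlrc5, H2-K1 and H2-D1, and 0 to 2 did under each alternative that kept all libraries, all of them with a value of at most 0.01 in size. None of the genes counted was called in the fit where its sign changed. Signs were taken after rounding to 2 decimals, so changes to or from a value that rounds to 0 were left out. Fits without 1 library assume that the lone library of a group varies like the other group. The cause of these shifts was not tested. Low counts limit Psmb11, Psma8 and Psmc3ip, and 2 libraries per group limit the rest.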
